A study of Mus musculus with 8 samples.

Results

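Potassium channel genes were described as every gene whose symbol begins with Kcn, leaving out names that end in os. The rule found 81 of the 27249 genes in the expression table. Of these, 80 code for proteins, and the remaining member, Kcnq1ot1, is a long noncoding RNA from the Kcnq1 locus that matches by name alone. All libraries came from primary vascular smooth muscle cells of the mouse, which contract the vessel wall. The cells carried extra THOC5, a member of the THO complex, which acts in messenger RNA export, or green fluorescent protein (GFP) as the control, whose genotype is labelled WT. Polyadenylated RNA was sequenced from 4 groups of 2 libraries. These were THOC5 cells in osteogenic medium, THOC5 cells in growth medium, GFP cells in osteogenic medium and GFP cells in growth medium. Osteogenic medium is named in the series design as inorganic phosphate for 6 days. The labels give neither the vector, the strain, the sex or age of the animals, nor whether replicates were separate cultures, so each p-value measures only the spread between libraries, which may be technical.

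Potassium channels let potassium leave the cell and so hold the membrane of smooth muscle at a negative voltage. When they open, voltage-gated calcium channels close and the muscle relaxes. When they close, calcium enters and the muscle contracts. Inward rectifiers and tandem-pore leak channels set the resting voltage, voltage-gated (Kv) channels answer depolarization, and calcium-activated channels answer local calcium release. Auxiliary subunits of the Kcne, Kcnab, Kcnip and Kcnmb families join these pores and change how they gate or reach the surface. Loss of contractile genes and gain of bone-forming genes together make up the osteogenic transition of smooth muscle cells.

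The libraries held between 7058681 and 10581042 reads in genes, and 3 reads, the upper limit that a count of 0 allows, corresponded to between 2.59 and 3.99 normalized counts. Thoc5 stood at 1780.2 and 1937 in the THOC5 osteogenic libraries, against 649.5 and 615 in the GFP osteogenic libraries, and at 2155 and 1406 in the THOC5 growth libraries, against 458 and 471 in the GFP growth libraries. The 2 GFP osteogenic libraries stood apart, with correlations of 0.967 to 0.976 with the other 6 and of 0.978 to 0.984 within groups, on log2 values. Summed smooth muscle markers ranged from 25672 to 27660 in the THOC5 osteogenic and 31463 to 32205 in the THOC5 growth libraries. They ranged from 12022 to 13920 in the GFP osteogenic and 25087 to 29299 in the GFP growth libraries. Most of each sum was Acta2. In GFP cells with osteogenic medium 7 of 9 fell. Des and Myocd did not pass and were higher. Des stood at 25.9 and 18.8 in the GFP osteogenic, against 9.32 and 10.6 in the GFP growth libraries. Myocd stood at 16.4 and 15.2 in the GFP osteogenic, against 10.5 and 14.6 in the GFP growth libraries. Fibroblast markers summed to 18186 to 19606 in the THOC5 osteogenic, 22345 to 22726 in the THOC5 growth, 5075 to 7128 in the GFP osteogenic and 17641 to 20175 in the GFP growth libraries, with 4 of 7 fallen and with Dpt and Pi16 near 0. Pericyte markers summed to 7257 to 8157 in the THOC5 osteogenic, 7585 to 8468 in the THOC5 growth, 2875 to 3707 in the GFP osteogenic and 6830 to 7934 in the GFP growth libraries, with 3 of 6 tested markers fallen and Higd1b near 0. Macrophage markers summed to 189 to 205 in the THOC5 osteogenic, 188 to 209 in the THOC5 growth, 312 to 327 in the GFP osteogenic and 259 to 267 in the GFP growth libraries. Their Adgre1, Ptprc and Itgam were near 0 in every library, but Csf1r stood between 64.9 and 102, and Cd68, the 1 of 3 tested that rose in GFP cells, at 246 and 244 in the GFP osteogenic, against 167 and 165 in the GFP growth libraries. Endothelial markers summed to 94.8 to 102 in the THOC5 osteogenic, 108 to 137 in the THOC5 growth, 51.0 to 71.8 in the GFP osteogenic and 90.4 to 133 in the GFP growth libraries, and Vwf, the 1 of 4 tested that fell, stood at 12.1 and 9.84 in the GFP osteogenic, against 99.1 and 58.5 in the GFP growth libraries, with Tie1 near 0. Neuronal markers summed to 75.1 to 75.4 in the THOC5 osteogenic, 58.9 to 65.9 in the THOC5 growth, 44.97 to 52.8 in the GFP osteogenic and 65.1 to 76.9 in the GFP growth libraries, nearly all of it Syt1, the 1 of 3 tested that fell, with Rbfox3 and Snap25 near 0. Of 3 striated muscle markers tested 1 rose, and of 3 Schwann cell markers none passed. The part that cell types other than smooth muscle play in the channel values was not tested. In such bulk RNA, fewer cells of a type and less RNA per cell cannot be told apart.

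Of the 81 members, 61 passed the filter of at least 1 normalized count in at least 2 libraries, and 35 had a read in every library. Mean levels over the 8 libraries were at least 100 normalized counts for 9 members, at least 10 for 27, between 1 and 10 for 24 and below 1 for 30. The 20 that did not pass had at most 3 reads in any library. They include Kcnq1, a delayed rectifier subunit, and Kcnk6, a tandem-pore leak channel. Another 14 protein-coding Kcn genes of the annotation, among them Kcna5 and the pore Kcnj11 of ATP-sensitive channels, have no values under these symbols in the expression table. Kcnj8, the pore of the vascular ATP-sensitive channel, had 0 to 2 reads per library, and Kcnmb4, a BK channel auxiliary subunit, 0 to 4. Kcnn4, the intermediate-conductance calcium-activated channel, had 1 to 8 reads.

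Per kilobase of exon, Kcnj15 was the most abundant member, with a mean of 217 normalized counts per kilobase over the 8 libraries. Kcne4 had 111, Kcnh2 79.3, Kcnk2 33.7, Kcnab1 32.5, Kcnd1 26.7, Kcnab2 20.8, Kcnab3 20.4, Kcnj2 16.8 and Kcnq5 15.9. The long Kcnq1ot1 had 3.80, and Kcnma1, the BK channel pore, 0.662. The order was led by an inward rectifier and a Kv auxiliary subunit. Summed over the 80 protein-coding members, normalized counts were 3737 and 3969 in the THOC5 osteogenic libraries, 4229.6 and 4310.0 in the THOC5 growth libraries, 2354 and 2624 in the GFP osteogenic libraries and 3929.6 and 3953 in the GFP growth libraries. Kcnj15 alone supplied 37.5% and 37.8% of that sum in the THOC5 osteogenic, 41.9% and 38.0% in the THOC5 growth, 28.3% and 32.2% in the GFP osteogenic and 42.3% and 37.0% in the GFP growth libraries. The GFP osteogenic libraries had the lowest sum and the lowest share of the 4 groups.

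**Figure D1:**
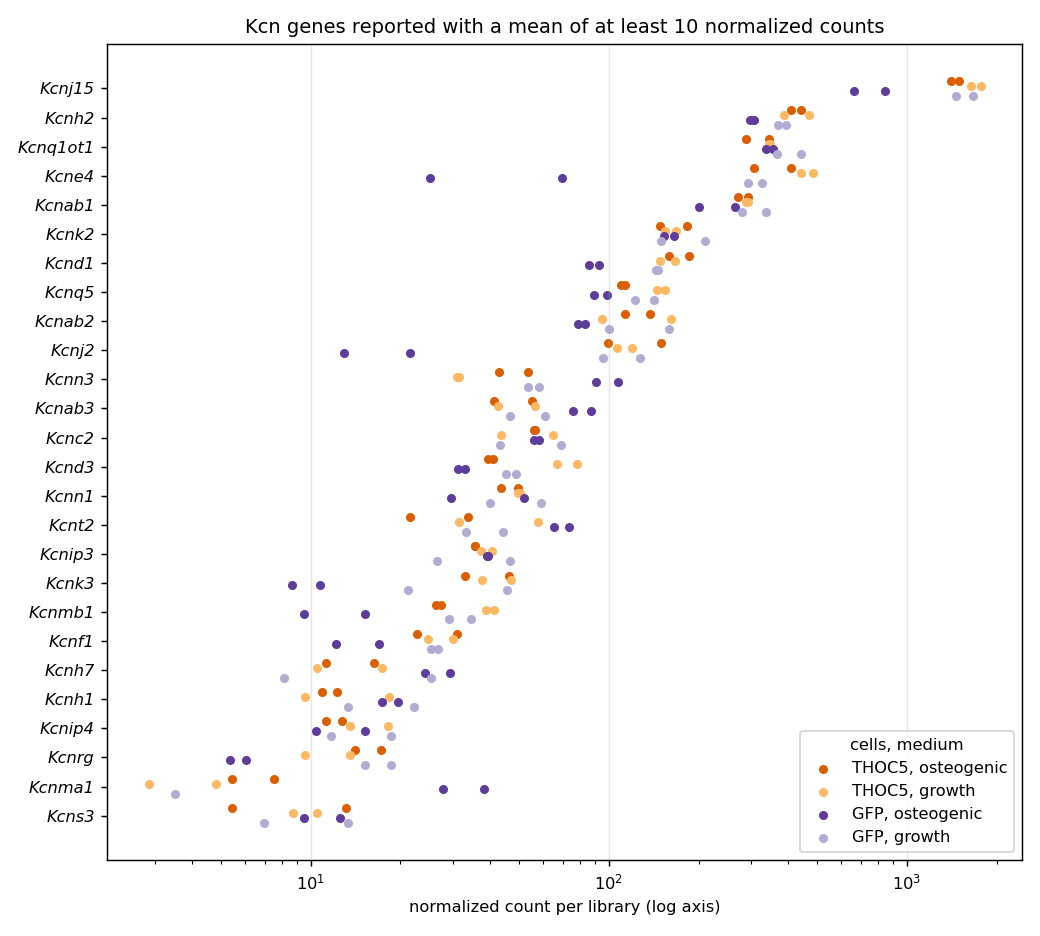
Normalized counts (log axis) of the members reported here with a mean of at least 10, with a point per library coloured by group (THOC5 osteogenic, THOC5 growth, GFP osteogenic, GFP growth). Kcnj15 lies highest in every library, Kcnj2 and Kcne4 dip in the GFP osteogenic libraries, Kcnma1 is higher there than elsewhere, and the GFP growth library with 0 Kcnma1 reads cannot be drawn on the log axis.

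The effect of osteogenic medium was measured in GFP cells before THOC5 cells. With osteogenic medium, GFP cells held less RNA of the inward rectifiers Kcnj2 and Kcnj15 and the Kv pores Kcnd1 and Kcnq5. The auxiliary subunits Kcne4 and Kcnmb1, the leak channel Kcnk3 and Kcnrg, which is not a subunit, were also lower in GFP cells. GFP cells held more of the calcium-activated pores Kcnma1 and Kcnn3. The falls ran from 1.40-fold for Kcnq5 to 7.24-fold for Kcne4. Of the 61 members tested, 8 fell and 2 rose with osteogenic medium, which is 16.4% together, against 20.8% of all 22575 genes tested (10.3% higher and 10.6% lower). Among the 27 members with a mean of at least 10 normalized counts, 10 passed, which is 37.0%, against 33.4% of all genes at that level. Kcnma1 is among these 10 and reaches that level only through the GFP osteogenic libraries (75 pooled reads, against 3 in the GFP growth libraries). Its place among the 27 and its call are therefore not independent. The members that fell are 13.1% and those that rose 3.28% of the 61. The share that rose is below its background and the share that fell above it, and neither difference was tested. The median log2 change was -0.15 over the 61 members, against 0.00 over all genes tested. Of 9 inward rectifiers tested, 2 fell and none rose. Of 25 Kv pores, 2 fell and none rose. Of 10 Kv auxiliary subunits, a class that here also holds Kcnrg, 2 fell and none rose. Of 10 calcium- and sodium-activated members, 2 rose and 1 fell. Of 6 tandem-pore channels, 1 fell and none rose.

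Kcnj2 codes for a strong inward rectifier that helps to set the resting voltage and, in arteries, carries the dilation to raised external potassium. The gene lies at chr11:111066164-111076821 on the plus strand (mm10, GENCODE M21). Kcnj2 stood at 99.1 and 149 normalized counts in the THOC5 osteogenic libraries, against 106 and 119 in the THOC5 growth libraries. It stood at 13.0 and 21.5 in the GFP osteogenic libraries, against 95.6 and 128 in the GFP growth libraries. The 2 GFP osteogenic libraries lay below the other 6, without overlap. With osteogenic medium Kcnj2 fell 6.29-fold in GFP cells (log2 -2.65 ± 0.27, adjusted p = 6.21e-05, limma, SE of the log2 change). Kcnj15, a further inward rectifier known from kidney and stomach, lies at chr16:95257558-95300260 on the plus strand. Kcnj15 stood at 1401 and 1501 normalized counts in the THOC5 osteogenic libraries, against 1772 and 1637 in the THOC5 growth libraries. It stood at 666 and 844 in the GFP osteogenic libraries, against 1662 and 1464 in the GFP growth libraries. The GFP osteogenic values again lay below all others. The change in GFP cells was 2.08-fold lower (log2 -1.06 ± 0.12, adjusted p = 1.07e-04).

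Kcne4, an auxiliary subunit that joins Kv pores such as Kcnq1 and alters their current, lies at chr1:78816758-78820028 on the plus strand. Kcne4 stood at 308 and 407 normalized counts in the THOC5 osteogenic libraries, against 484 and 441 in the THOC5 growth libraries. It stood at 25.1 and 69.8 in the GFP osteogenic libraries, against 327 and 294 in the GFP growth libraries. The GFP osteogenic libraries were the 2 lowest by a wide margin, and differed from each other by more than the GFP growth libraries did. Kcne4 fell 7.24-fold in GFP cells (log2 -2.86 ± 0.34, adjusted p = 1.75e-04), and its log2 change was -2.14 or -3.58 leaving out GFP osteogenic library 1 or 2. Kcnrg codes for a soluble protein that, in human cells, holds back the assembly of Kv channels. Kcnrg stood at 17.3 and 14.1 normalized counts in the THOC5 osteogenic libraries, against 13.5 and 9.55 in the THOC5 growth libraries. It stood at 6.05 and 5.37 in the GFP osteogenic libraries, against 15.1 and 18.6 in the GFP growth libraries. The GFP osteogenic values were the 2 lowest of the 8, and the change in GFP cells was 2.66-fold lower (log2 -1.41 ± 0.38, adjusted p = 0.0208). The Kcnrg call was lost in several alternatives, with adjusted p = 0.101 with DESeq2, 0.0706 in a fit of the 4 libraries compared, 0.0838 and 0.0838 leaving out GFP osteogenic library 1 or 2, and 0.0603 and 0.106 leaving out GFP growth library 1 or 2. Among the auxiliary subunits that did not pass, Kcnab1, a cytoplasmic Kv beta subunit, had log2 -0.42 ± 0.14, adjusted p = 0.0606, and its relative Kcnab3 had log2 0.60 ± 0.23, adjusted p = 0.0974.

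The promoters of 4 channels come from RefSeq (GRCm38.p6), from 250 bases before to 50 bases after the transcript start, 5′ to 3′ on the gene's strand, with motif matches in capitals. They show the bases around an annotated start of an inward rectifier and an auxiliary subunit that fell in GFP cells, of a pore that rose, and of the most abundant member. The Kcnma1 window lies inside the gene, whose annotated 5′ end is at 24014491. Which start these cells use was not tested.
Kcnj2, chr11:111065914-111066213, plus strand: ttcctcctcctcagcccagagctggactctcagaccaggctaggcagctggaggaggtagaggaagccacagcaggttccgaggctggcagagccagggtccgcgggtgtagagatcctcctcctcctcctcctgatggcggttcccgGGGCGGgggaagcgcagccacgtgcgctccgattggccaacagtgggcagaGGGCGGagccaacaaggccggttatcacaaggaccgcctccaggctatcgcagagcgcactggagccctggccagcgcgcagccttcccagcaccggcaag
Kcne4, chr1:78816661-78816960, plus strand: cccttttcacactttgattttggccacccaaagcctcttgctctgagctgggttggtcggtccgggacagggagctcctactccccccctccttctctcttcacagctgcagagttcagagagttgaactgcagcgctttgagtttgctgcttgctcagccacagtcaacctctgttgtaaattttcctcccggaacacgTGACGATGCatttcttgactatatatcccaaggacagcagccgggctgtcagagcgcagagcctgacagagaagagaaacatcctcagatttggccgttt
Kcnj15, chr16:95257308-95257607, plus strand: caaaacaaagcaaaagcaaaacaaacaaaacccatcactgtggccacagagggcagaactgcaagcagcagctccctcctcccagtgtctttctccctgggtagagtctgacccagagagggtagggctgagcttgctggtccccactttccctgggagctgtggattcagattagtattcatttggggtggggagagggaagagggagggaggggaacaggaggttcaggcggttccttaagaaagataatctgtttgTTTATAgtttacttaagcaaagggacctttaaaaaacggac
Kcnma1, chr14:24004156-24004455, minus strand: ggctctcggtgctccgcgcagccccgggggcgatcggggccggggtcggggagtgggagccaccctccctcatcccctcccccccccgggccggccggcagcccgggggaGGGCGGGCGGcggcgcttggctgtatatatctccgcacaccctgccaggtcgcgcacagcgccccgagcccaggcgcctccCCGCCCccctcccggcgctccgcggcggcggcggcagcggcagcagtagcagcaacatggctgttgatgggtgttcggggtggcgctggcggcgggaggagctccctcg
The Kcnj2 window holds 2 GC boxes (GGGCGG), the Kcnma1 window 3, of which 2 overlap, the Kcne4 window 1 antioxidant response element core (TGACNNNGC), and the Kcnj15 window 1 TATA motif (TATAAA, read on the minus strand, after the start). Windows were found for 61 members, 85 in all because some genes have more than 1 start. On both strands, the GC box occurs in 42 of these 85 windows and in 35.7% of all 32851 mouse promoter windows, the antioxidant response core in 16 of the 85 and 12.4% of all, and the TATA motif in 5 of the 85 and 13.6% of all. The CArG box, the site of serum response factor in contractile genes, occurs in 0 of the 85 windows and in 1.63% of all windows, so these letters were not found in the windows of any member with an entry. The MCAT motif (CATTCC) occurs in 11 of the 85 and 14.7% of all, and the AP-1 motif (TGANTCA) in 3 of the 85 and 7.81% of all. Each match describes letters in the window only.

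Among the Kv pores, Kcnd1, a rapidly inactivating A-type channel at chrX:7822289-7838280, stood at 185 and 159 normalized counts in the THOC5 osteogenic libraries, against 149 and 167 in the THOC5 growth libraries. It stood at 85.6 and 93.0 in the GFP osteogenic libraries, against 145 and 146 in the GFP growth libraries. The GFP osteogenic libraries were the lowest, without overlap, and Kcnd1 fell 1.62-fold in GFP cells (log2 -0.70 ± 0.14, adjusted p = 0.00420). That call was lost with adjusted p = 0.0507 leaving out GFP osteogenic library 1. Kcnq5 codes for an M-type channel of the Kcnq family that vascular smooth muscle also uses. Kcnq5 stood at 110.0 and 114 normalized counts in the THOC5 osteogenic libraries, against 154 and 145 in the THOC5 growth libraries. It stood at 98.6 and 89.4 in the GFP osteogenic libraries, against 142 and 122 in the GFP growth libraries. The osteogenic libraries lay below the growth libraries without overlap in both THOC5 and GFP cells, and Kcnq5 was 1.40-fold lower in GFP cells (log2 -0.49 ± 0.14, adjusted p = 0.0307). The call was lost in 9 of 17 alternatives, with adjusted p = 0.109 after scaling to library totals, 0.112 with DESeq2, 0.103 in a fit of the 4 libraries compared, 0.0558 and 0.0561 leaving out THOC5 osteogenic library 1 or 2, 0.0797 and 0.134 leaving out GFP osteogenic library 1 or 2, and 0.136 and 0.0503 leaving out GFP growth library 1 or 2.

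Kcnk3 is the acid-sensitive tandem-pore leak channel whose human gene is mutated in heritable pulmonary arterial hypertension, and lies at chr5:30588170-30625271. Kcnk3 stood at 46.3 and 32.9 normalized counts in the THOC5 osteogenic libraries, against 37.7 and 46.8 in the THOC5 growth libraries. It stood at 8.65 and 10.7 in the GFP osteogenic libraries, against 45.4 and 21.3 in the GFP growth libraries. The GFP osteogenic libraries held the 2 lowest values, and Kcnk3 fell 3.02-fold in GFP cells (log2 -1.60 ± 0.36, adjusted p = 0.00927). It was lost with adjusted p = 0.0905 in a fit of the 4 libraries compared, 0.107 leaving out GFP osteogenic library 1, and 0.0994 leaving out GFP growth library 1. Kcnk2, the mechanically gated tandem-pore channel, did not pass and had log2 -0.15 ± 0.17, adjusted p = 0.599.

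The calcium-activated genes changed in both directions. BK channels are built from the pore Kcnma1 and, in smooth muscle, the subunit Kcnmb1, which makes the pore more sensitive to calcium and lies at chr11:33963013-33973641. Kcnmb1 stood at 27.3 and 26.3 normalized counts in the THOC5 osteogenic libraries, against 38.6 and 41.1 in the THOC5 growth libraries. It stood at 9.51 and 15.2 in the GFP osteogenic libraries, against 29.1 and 34.6 in the GFP growth libraries. Kcnmb1 was 2.51-fold lower in GFP cells (log2 -1.33 ± 0.29, adjusted p = 0.00791), and the GFP osteogenic values were the lowest of the 8. The call was lost with adjusted p = 0.075 in a fit of the 4 libraries compared, 0.0753 leaving out GFP osteogenic library 1, and 0.0805 leaving out GFP growth library 2. Kcnma1 lies at chr14:23289431-24014491 on the minus strand. The pore Kcnma1 had 6 and 8 reads in the THOC5 osteogenic libraries, 5 and 3 in the THOC5 growth libraries, 44 and 31 in the GFP osteogenic libraries and 3 and 0 in the GFP growth libraries. Pooled reads were 75 in GFP cells in osteogenic medium, against 3 in GFP cells in growth medium, a depth-adjusted ratio of 17.7 with a 95% interval of 5.83 to 87.8 that covers counting error only. The log2 change was 3.98 ± 0.65, adjusted p = 0.00142, and was 2.53 with a pseudocount of 5, and 5.07 or 2.90 leaving out GFP growth library 1 or 2, of which the second had no read. Kcnn3 codes for a small-conductance calcium-activated channel and lies at chr3:89520164-89675132. Kcnn3 stood at 42.7 and 53.5 normalized counts in the THOC5 osteogenic libraries, against 30.9 and 31.5 in the THOC5 growth libraries. It stood at 90.8 and 107 in the GFP osteogenic libraries, against 53.6 and 58.5 in the GFP growth libraries. The GFP osteogenic values were the highest of the 8 and Kcnn3 rose 1.75-fold in GFP cells (log2 0.81 ± 0.20, adjusted p = 0.0153). That call was lost with adjusted p = 0.0578 and 0.107 leaving out GFP osteogenic library 1 or 2, and 0.0899 and 0.067 leaving out GFP growth library 1 or 2. The pore rose while its Kcnmb1 subunit fell, on small read numbers for the pore.

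**Figure D2:**
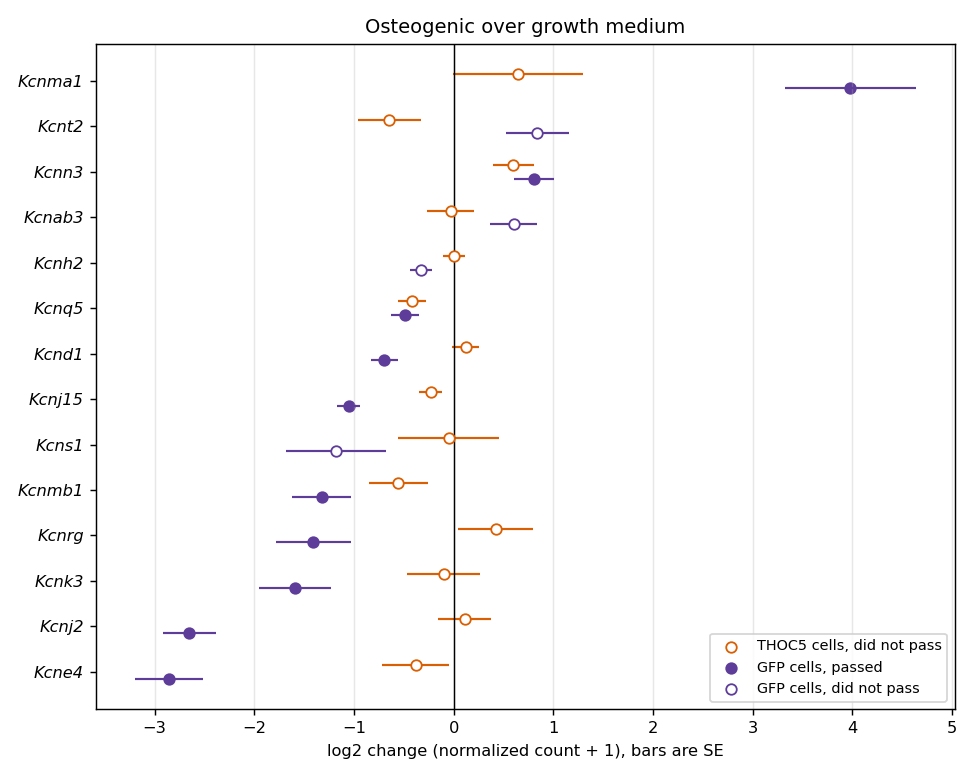
Log2 change of osteogenic over growth medium, with SE bars, in THOC5 cells and GFP cells for the channel genes that passed in any comparison. Kcne4 and Kcnj2 lie lowest in GFP cells (log2 -2.86 and -2.65) and Kcnma1 highest (3.98), and no THOC5 value passed.

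Counts of members called in GFP cells changed when single libraries were left out. Whether the calls over all genes changed alike was not compared. Leaving out GFP osteogenic library 1 left 4 members past the threshold, leaving out GFP growth library 1 left 6, and a fit of the 4 libraries compared gave 6. The authors' deposited table has 8 members past an adjusted p of 0.05 in this comparison, and all 8 also passed here. Of the 14042 genes it tested 27.0% passed. How many members are among those genes was not counted, so the share of members is not given. Scaling to library totals gave 5 higher and 7 lower members, against 3721 higher and 1688 lower of all 22575 genes tested. It moved the median of all genes by 0.13 log2 and left the median of the members at -0.07.

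The same medium contrast was then read in THOC5 cells. No member passed with limma, against 0.54% of all genes, with 5 of 61 at an unadjusted p below 0.05, and edgeR and DESeq2 each called 0. Kcne4 had log2 -0.38 ± 0.34, adjusted p = 0.928 in THOC5 cells, and Kcnj2 had log2 0.11 ± 0.27, adjusted p = 0.982. Kcnj15 had log2 -0.23 ± 0.12, adjusted p = 0.880, Kcnd1 log2 0.12 ± 0.14, adjusted p = 0.949 and Kcnk3 log2 -0.10 ± 0.36, adjusted p = 0.990. Kcnmb1 had log2 -0.56 ± 0.29, adjusted p = 0.888, Kcnma1 log2 0.64 ± 0.65, adjusted p = 0.937 and Kcnn3 log2 0.60 ± 0.20, adjusted p = 0.688. Kcnd3, an A-type Kv pore, stood at 40.9 and 39.4 normalized counts in the THOC5 osteogenic libraries, against 78.2 and 66.9 in the THOC5 growth libraries, and had log2 -0.83 ± 0.20, adjusted p = 0.225. A p that misses the threshold does not show that the medium left these genes alike.

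The interaction asks whether the medium acted differently in THOC5 cells than in GFP cells. It passed for 5 of 61 members, which is 8.20%, with 4 higher and 1 lower, against 9.22% of all genes tested (5.3% higher and 3.92% lower). Kcnj2 had log2 2.76 ± 0.38, adjusted p = 0.00173. Kcne4 had log2 2.47 ± 0.48, adjusted p = 0.00950, Kcnj15 log2 0.82 ± 0.16, adjusted p = 0.0107 and Kcnd1 log2 0.82 ± 0.19, adjusted p = 0.0245. Kcnma1 had log2 -3.34 ± 0.92, adjusted p = 0.0462, the opposite sign. Leaving out GFP osteogenic library 1 or 2 gave log2 1.75 or 3.19 for Kcne4, and leaving out GFP growth library 1 or 2 gave log2 -4.42 or -2.25 for Kcnma1, which had log2 -2.15 with a pseudocount of 5. For all 5, at least 1 alternative ended the call. That for Kcnj2 was lost with adjusted p = 0.0535 and 0.0646 leaving out GFP growth library 1 or 2. For Kcne4 the values were 0.0653 with every gene above 0 kept, 0.0518 and 0.106 leaving out THOC5 osteogenic library 1 or 2, 0.0569 leaving out THOC5 growth library 1, and 0.121 and 0.123 leaving out GFP growth library 1 or 2. For Kcnj15 they were 0.0514 with every gene above 0 kept, 0.0562 and 0.103 leaving out THOC5 osteogenic library 1 or 2, 0.0598 leaving out GFP osteogenic library 1, and 0.101 and 0.0825 leaving out GFP growth library 1 or 2. For Kcnd1 they were 0.0522 with DESeq2, 0.115 and 0.0781 leaving out THOC5 osteogenic library 1 or 2, 0.0999 leaving out THOC5 growth library 1, 0.109 leaving out GFP osteogenic library 1, and 0.0901 and 0.109 leaving out GFP growth library 1 or 2. For Kcnma1 they were 0.0734 with a pseudocount of 0.5, 0.121 with every gene above 0 kept, 0.168 and 0.159 leaving out THOC5 osteogenic library 1 or 2, 0.166 and 0.083 leaving out THOC5 growth library 1 or 2, 0.214 and 0.117 leaving out GFP osteogenic library 1 or 2, and 0.0535 and 0.125 leaving out GFP growth library 1 or 2. Leaving out either GFP growth library left 0 members, leaving out either THOC5 osteogenic library left 1, and leaving out the first THOC5 growth or the first GFP osteogenic library left 2. For the left-out libraries, the share of all genes called was not set beside these member counts. Library totals gave 4 higher and 2 lower members, against 886 higher and 1382 lower of all 22575 genes tested. The other members that passed between THOC5 and GFP cells in osteogenic medium did not pass here. Of these, Kcnrg had log2 1.83 ± 0.53, adjusted p = 0.0546, Kcnt2 log2 -1.49 ± 0.45, adjusted p = 0.0632 and Kcnk3 log2 1.49 ± 0.51, adjusted p = 0.0994. The rest were Kcnn3, Kcnmb1, Kcnh2, Kcns1 and Kcnab3. For Kcnn3, the estimated change with osteogenic medium was upward in both THOC5 and GFP cells.

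In growth medium, THOC5 cells were compared with GFP cells to read the transgene without phosphate. No member passed with limma, against 0.00443% of all genes (Thoc5 itself), with 8 of 61 at an unadjusted p below 0.05, and edgeR and DESeq2 each called 0. Kcnn3 stood at 30.9 and 31.5 normalized counts in the THOC5 growth libraries, against 53.6 and 58.5 in the GFP growth libraries, without overlap, and had log2 -0.82 ± 0.20, adjusted p = 0.906. Kcne4 had log2 0.57 ± 0.34, adjusted p = 0.953, Kcnma1 log2 1.16 ± 0.65, adjusted p = 0.945 and Kcnj2 log2 0.03 ± 0.27, adjusted p = 0.992.

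In osteogenic medium, THOC5 cells held more RNA than GFP cells of Kcnj2, Kcnj15, Kcne4, Kcnrg, Kcnd1, Kcnh2, Kcns1, Kcnk3 and Kcnmb1. They held less of the calcium- and sodium-activated pores Kcnma1, Kcnn3 and Kcnt2 and of the beta subunit Kcnab3. In all, 13 of 61 members passed between THOC5 and GFP cells, which is 21.3%, against 22.0% of all genes tested. Of the members, 9 (14.8%) were higher and 4 (6.56%) lower, against 11.3% and 10.7% of all genes. Neither difference was tested. At a mean of at least 10 normalized counts 12 of 27 passed, which is 44.4%, against 35.6% of all genes at that level. Kcnma1 is among these 12 and reaches that level only through the GFP osteogenic libraries. The median log2 difference was 0.06 over the 61 members, against 0.00 over all genes. This comparison and the medium response of GFP cells share the GFP osteogenic libraries, so values that point opposite ways in them are not separate evidence. Of 9 inward rectifiers 2 were higher, of 25 Kv pores 3, of 10 Kv auxiliary subunits 2 with 1 lower, of 6 tandem-pore channels 1, and of 10 calcium- and sodium-activated members 1 was higher and 3 lower.

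Among the inward rectifiers, Kcnj2 averaged 124 ± 35.5 normalized counts in THOC5 osteogenic and 17.2 ± 6.01 in GFP osteogenic cells (SD, n = 2 each), a 6.92-fold higher level in THOC5 cells (log2 2.79 ± 0.27, adjusted p = 4.06e-05). Kcnj15 averaged 1451 ± 70.5 in THOC5 osteogenic and 755 ± 126 in GFP osteogenic cells, 1.93-fold higher in THOC5 cells (log2 0.95 ± 0.12, adjusted p = 1.91e-04). Among auxiliary subunits, Kcne4 averaged 358 ± 70.2 in THOC5 osteogenic and 47.4 ± 31.6 in GFP osteogenic cells, 8.27-fold higher in THOC5 cells (log2 3.05 ± 0.34, adjusted p = 1.08e-04). Leaving out GFP osteogenic library 1 or 2 gave log2 2.33 or 3.77 for Kcne4. The groups did not overlap for any of these 3 genes. All 3 had passed on the same libraries, so this is not separate evidence. The share of all genes without overlap was not counted. Kcnrg was 2.48-fold higher (log2 1.31 ± 0.38, adjusted p = 0.0278), a call lost with adjusted p = 0.116 with DESeq2, 0.0653 in a fit of the 4 libraries compared, 0.151 and 0.097 leaving out THOC5 osteogenic library 1 or 2, and 0.0945 and 0.103 leaving out GFP osteogenic library 1 or 2. Kcnab3 stood at 55.4 and 41.3 in the THOC5 osteogenic libraries, against 87.4 and 76.0 in the GFP osteogenic libraries, 1.69-fold lower (log2 -0.76 ± 0.23, adjusted p = 0.0395), and was lost with adjusted p = 0.0715 with every gene above 0 kept, 0.0706 with DESeq2, 0.0909 in a fit of the 4 libraries compared, 0.0623 and 0.283 leaving out THOC5 osteogenic library 1 or 2, 0.234 and 0.105 leaving out GFP osteogenic library 1 or 2, and 0.0649 and 0.0661 leaving out GFP growth library 1 or 2. Its exons overlap those of the antisense gene Kcnab3os over 5.13% of their length, and the library kit did not mark strand. Other named members also overlap genes of the opposite strand, over 5.98% of exon length for Kcnma1, 5.76% for Kcnk3, 5.27% for Kcnj15 and 12.2% for Kcnk2. In these overlaps, reads of the 2 strands cannot be told apart.

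Of the Kv pores, Kcnd1 was 1.91-fold higher in THOC5 cells in osteogenic medium, at 172 ± 18.9 in THOC5 and 89.3 ± 5.23 in GFP cells (SD, n = 2 each), with log2 0.93 ± 0.14, adjusted p = 6.46e-04. Kcnh2, a channel known for repolarizing the heart, stood at 443 and 410.2 in the THOC5 osteogenic libraries, against 308 and 297 in the GFP osteogenic libraries, without overlap, 1.41-fold higher (log2 0.49 ± 0.11, adjusted p = 0.00825). Its call was lost with adjusted p = 0.0637 after scaling to library totals, 0.086 and 0.053 leaving out THOC5 osteogenic library 1 or 2, and 0.0566 and 0.06 leaving out GFP osteogenic library 1 or 2. Kcns1, a silent subunit that changes other Kv channels, had 11 and 8 reads in the THOC5 osteogenic libraries, against 3 and 2 in the GFP osteogenic libraries (log2 1.61 ± 0.50, adjusted p = 0.0411), with log2 0.93 at a pseudocount of 5. On these few reads the call was lost in 9 of 15 alternatives, with adjusted p = 0.0649 with every gene above 0 kept, 0.0513 after scaling to library totals, 0.0647 in a fit of the 4 libraries compared, 0.198 and 0.126 leaving out THOC5 osteogenic library 1 or 2, 0.0575 and 0.0589 leaving out THOC5 growth library 1 or 2, and 0.116 and 0.167 leaving out GFP osteogenic library 1 or 2. The tandem-pore channel Kcnk3 was 3.76-fold higher (log2 1.91 ± 0.36, adjusted p = 0.00315), at 39.6 ± 9.54 in THOC5 osteogenic and 9.69 ± 1.47 in GFP osteogenic cells, and was lost with adjusted p = 0.0543 leaving out THOC5 osteogenic library 1, and 0.0566 leaving out GFP osteogenic library 1.

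Of the 4 lower members, 3 are calcium- or sodium-activated. Kcnma1 averaged 6.48 ± 1.45 in THOC5 osteogenic and 32.9 ± 7.30 in GFP osteogenic cells (log2 -2.18 ± 0.65, adjusted p = 0.0341). Pooled reads were 14 in THOC5 cells, against 75 in GFP cells, a depth-adjusted ratio of 0.196 with a 95% counting interval of 0.102 to 0.350. Its call was lost with adjusted p = 0.084 with a pseudocount of 0.5, 0.0853 with every gene above 0 kept, 0.187 and 0.137 leaving out THOC5 osteogenic library 1 or 2, 0.0554 and 0.054 leaving out THOC5 growth library 1 or 2, and 0.229 and 0.12 leaving out GFP osteogenic library 1 or 2. Kcnn3 was 2.04-fold lower, at 42.7 and 53.5 in the THOC5 osteogenic libraries, against 90.8 and 107 in the GFP osteogenic libraries (log2 -1.03 ± 0.20, adjusted p = 0.00380). Kcnt2, a sodium-activated pore, stood at 33.6 and 21.6 in the THOC5 osteogenic libraries, against 65.7 and 73.3 in the GFP osteogenic libraries, 2.52-fold lower (log2 -1.33 ± 0.32, adjusted p = 0.0110). Its call was lost with adjusted p = 0.0579 in a fit of the 4 libraries compared, 0.141 leaving out THOC5 osteogenic library 2, and 0.0876 and 0.0993 leaving out GFP osteogenic library 1 or 2. Kcnmb1 went the other way, 2.13-fold higher (log2 1.09 ± 0.29, adjusted p = 0.0206), and was lost with adjusted p = 0.0775 with DESeq2, 0.102 in a fit of the 4 libraries compared, 0.107 and 0.111 leaving out THOC5 osteogenic library 1 or 2, and 0.145 leaving out GFP osteogenic library 1.

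**Figure D3:**
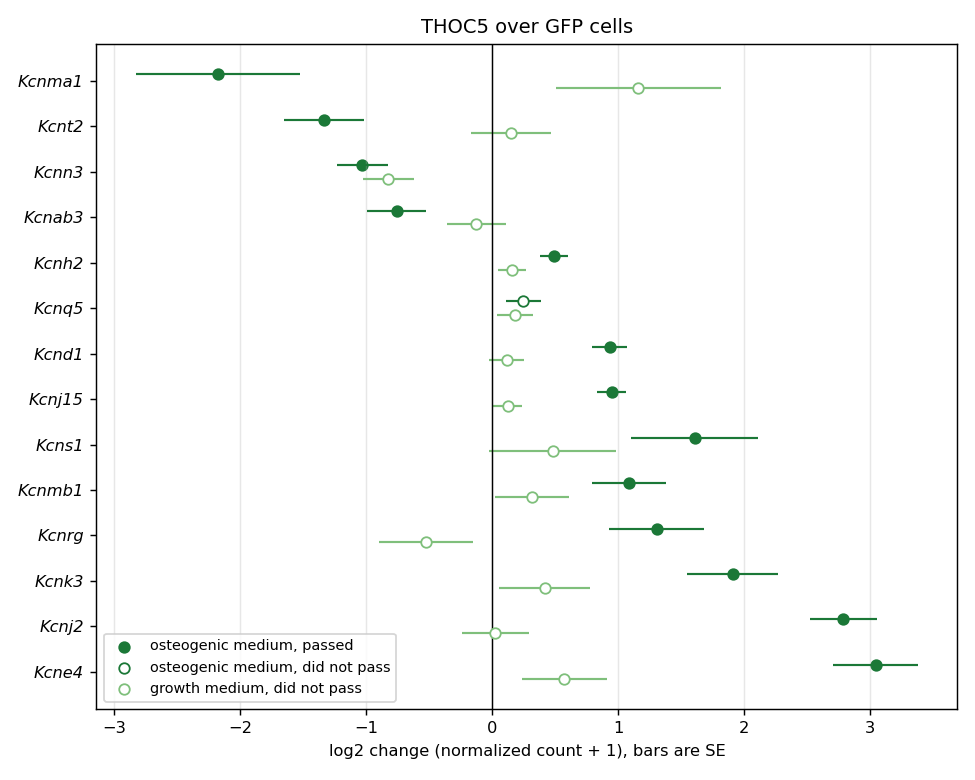
Log2 difference of THOC5 over GFP cells, with SE bars, in osteogenic and in growth medium for the channel genes that passed in any comparison. Kcne4 and Kcnj2 lie highest in osteogenic medium (3.05 and 2.79) and Kcnma1 lowest (-2.18), and no growth medium value passed.

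Leaving out GFP osteogenic library 1 left 5 members between THOC5 and GFP cells in osteogenic medium, leaving out either THOC5 osteogenic library left 6, leaving out GFP osteogenic library 2 left 7, and a fit of the 4 libraries compared gave 8. For the left-out libraries, the share of all genes called was not set beside these member counts. Library totals gave 7 higher and 5 lower members, against 1662 higher and 4066 lower of all 22575 genes tested. They moved the median of all genes by -0.16 log2, with the members' median at -0.08. The authors' deposited table has 9 members past an adjusted p of 0.05, and all 9 also passed here. Of the 14042 genes it tested 29.8% passed, and the number of members among them was not counted. Kcne4, Kcnj15, Kcnj2 and Kcnma1 passed in GFP cells, and Kcnd1, Kcne4, Kcnj15, Kcnj2 and Kcnn3 in osteogenic medium, under every alternative that was run.

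**Figure D4:**
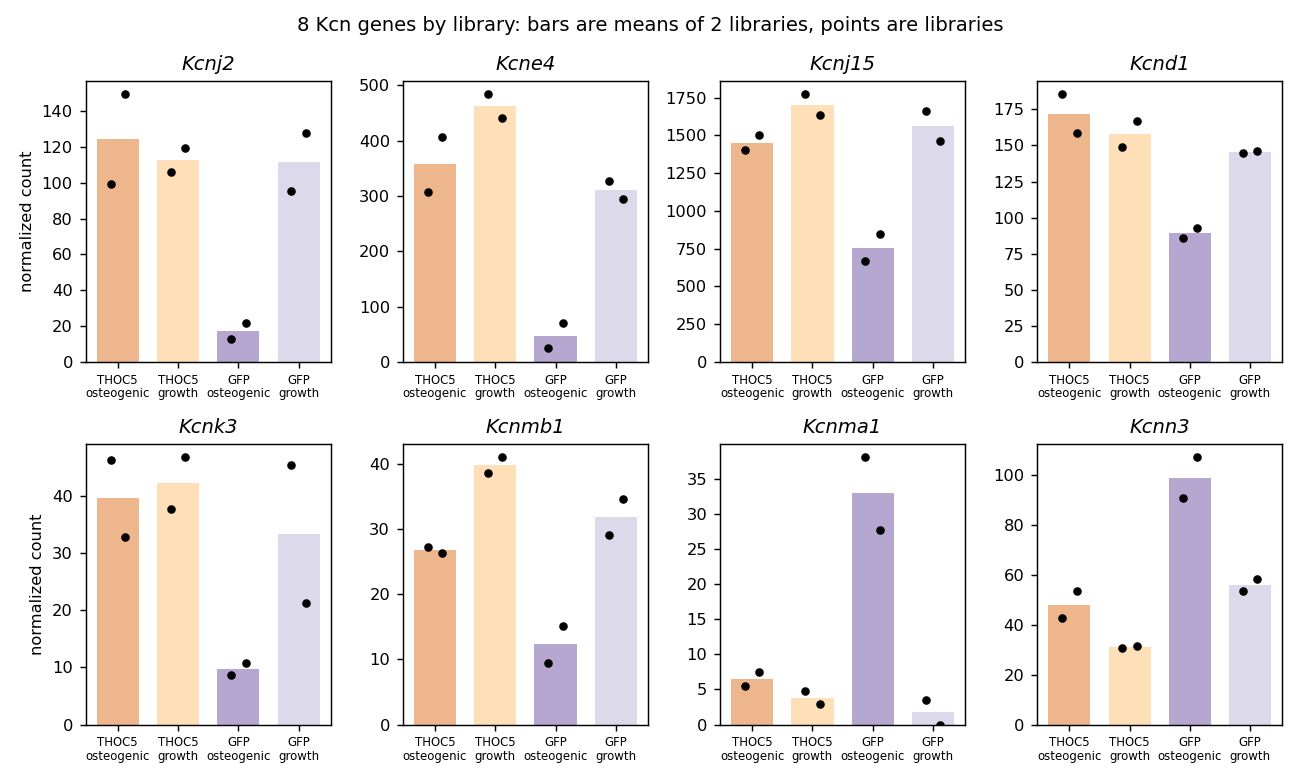
Normalized counts per library of 8 channels that passed, with the 4 groups on the x axis (THOC5 osteogenic, THOC5 growth, GFP osteogenic, GFP growth), points for libraries and bars for the mean of 2 libraries. The GFP osteogenic points lie below all others for Kcnj2, Kcne4, Kcnj15, Kcnd1, Kcnk3 and Kcnmb1, and above all others for Kcnma1 and Kcnn3.

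Genes that work beside the channels were counted in lists of their own, to be read against all genes tested. Of all genes, 10.6% fell and 10.3% rose with osteogenic medium in GFP cells. In osteogenic medium, 11.3% were higher and 10.7% lower in THOC5 than in GFP cells. Among all genes with a mean of at least 10 normalized counts, 33.4% and 35.6% passed in these 2 comparisons, in either direction. Few listed genes had a mean under 3 (2 of 25 calcium genes), so the share at that level is the closer background. No list was tested as a set. Among calcium entry and release genes, 11 of 25 fell and 1 rose with osteogenic medium in GFP cells, with a median log2 change of -0.40, against 0.00 over all genes. Cacna1c, the pore of the L-type calcium channel, had log2 -1.03 ± 0.12, adjusted p = 1.24e-04, and the chloride channel Ano1 had log2 -0.82 ± 0.09, adjusted p = 1.51e-04. Jph2, which ties the sarcoplasmic reticulum to the surface membrane, had log2 -0.62 ± 0.08, adjusted p = 4.25e-04, and Pkd2 had log2 -0.49 ± 0.09, adjusted p = 0.00273, lost with adjusted p = 0.0543 in a fit of the 4 libraries compared, and 0.0534 leaving out GFP growth library 1. In THOC5 cells against GFP cells in osteogenic medium 11 of 25 were higher and 1 lower. Of potassium pumps and cotransporters, 6 of 21 fell and none rose, with a median of -0.20, including the cotransporter Slc12a7 (log2 -0.62 ± 0.10, adjusted p = 0.00106) and the lysosomal channel Tmem175 (log2 -0.87 ± 0.15, adjusted p = 0.00175). Between THOC5 and GFP cells in osteogenic medium 4 were higher and 3 lower. Of regulators known to act on channel genes, 6 of 18 fell and 2 rose, with a median of -0.29, among them Nfatc4 (log2 -0.70 ± 0.08, adjusted p = 1.77e-04), Mrtfa (log2 -0.63 ± 0.08, adjusted p = 2.91e-04) and Srf (log2 -0.63 ± 0.11, adjusted p = 0.00242), with Fosl1 higher (log2 1.16 ± 0.19, adjusted p = 0.00156). The Srf call was lost with adjusted p = 0.0552 in a fit of the 4 libraries compared. In osteogenic medium 6 were higher in THOC5 cells and 2 lower. Of channel partners, 2 of 18 fell, near the 10.6% of all genes, and 1 rose, with a median of 0.00. Together these are a smaller share than the 33.4% of genes with a mean of at least 10. The Kv partner Dpp6 had log2 -1.03 ± 0.20, adjusted p = 0.00382, the scaffold Dlg4 log2 -0.44 ± 0.09, adjusted p = 0.00478 and Vapa log2 0.43 ± 0.09, adjusted p = 0.00665, lost with adjusted p = 0.0855 leaving out GFP osteogenic library 1, and 0.116 leaving out GFP growth library 2 for Dpp6, 0.0553 leaving out GFP osteogenic library 1, and 0.0608 leaving out GFP growth library 2 for Dlg4 and 0.0744 leaving out GFP osteogenic library 1, and 0.0747 and 0.0728 leaving out GFP growth library 1 or 2 for Vapa. In osteogenic medium 2 partners were higher in THOC5 cells and 3 lower. Scaled to library totals, 10 calcium genes were lower and 1 higher in the GFP response, and 5 pumps lower and 2 higher. Of regulators 5 were lower and 4 higher, and of partners 2 were lower and 4 higher. All 22575 genes tested gave 1688 lower and 3721 higher. On that scale, THOC5 cells in osteogenic medium had 7 calcium genes higher and 3 lower than GFP cells, and 4 pumps higher and 3 lower. They had 4 regulators higher and 5 lower, and 1 partner higher and 6 lower. All genes tested gave 1662 higher and 4066 lower in that comparison. No gene of these 4 lists passed in THOC5 cells with osteogenic medium or between THOC5 and GFP cells in growth medium with limma.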

How the data were processed

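Polyadenylated RNA of 8 libraries of primary mouse vascular smooth muscle cells was analysed, grouped by title. The labels name a TruSeq kit that does not mark strand. The deposited table holds a signal per gene, which is reads divided by a library's size factor, as the values themselves show, and also the authors' log2 fold changes, test statistic scores and p-values, per the file headers. Whole reads were recovered for 100% of values (tolerance 1e-06). FastQC, Bowtie2, MACS2, SAMtools and mm10 are named, per the submitters' processing notes, while the counting step is not given in the sources used here. Columns were matched through the description label, with 0 per-sample columns unused. limma 3.58.1 (R 4.3.3) with its trend option was fitted to log2(normalized count + 1) for the 22575 genes that reached 1 in 2 or more libraries, as 1 model with 4 residual degrees of freedom and 5 contrasts, with Benjamini-Hochberg adjusted p-values and a threshold of 0.05. A fold change is on that scale and understates the change of low genes. edgeR 4.0.16 and DESeq2 1.42.0 on recovered reads, and other pseudocounts, filters, scalings and left-out libraries were alternatives; edgeR called 4840 genes, 11 of them members, for the medium in GFP cells, and 5419 genes, 14 of them members, for THOC5 against GFP cells in osteogenic medium. The members, lists and tests were chosen with earlier results of these data known. Named genes are members past the threshold in any contrast, listed smooth muscle channels, the 8 most abundant, and up to 4 genes per other list. Exon lengths and gene coordinates are those of GENCODE M21 (mm10). Simulated data were used to test the fit. Some genes that the naming rule picks are not reported here.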

Additional observations from a re-analysis of the deposited data

Results flagged for a closer look

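The response to osteogenic medium differed between THOC5 cells and GFP cells for 5 channel genes, by the interaction test of limma, on the log2 scale. These are 8.20% of the 61 members tested, against 9.22% of all genes. Kcnj2 had a difference of 2.76 (adjusted p = 0.00173). Kcne4 had a difference of 2.47 (adjusted p = 0.00950). Kcnj15 had a difference of 0.82 (adjusted p = 0.0107). Kcnd1 had a difference of 0.82 (adjusted p = 0.0245). Kcnma1 had a difference of -3.34 (adjusted p = 0.0462). A positive value means that the change with osteogenic medium was more positive in THOC5 cells than in GFP cells. Each of the 5 calls was lost in at least 1 alternative setting or with 1 library left out.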

How the results depend on the processing

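Members called with osteogenic medium in GFP cells numbered 10, and 6 with only the 4 libraries compared and 4 to 11 with 1 library left out. Members called between THOC5 and GFP cells in osteogenic medium numbered 13, and 8 with only the 4 libraries compared and 5 to 12 with 1 library left out. Interaction calls numbered 5, and were 2 with every gene above 0 kept, 8 with a mean filter of at least 10 and 8 with edgeR, with 0 to 6 when 1 library was left out. In THOC5 cells and in growth medium 0 members passed in every alternative. The log2 change of Kcnk2 in GFP cells changed sign at 0.095 without GFP growth replicate 2, in a range of -0.40 to 0.095 with 1 library left out. Between THOC5 and GFP cells in osteogenic medium it was -0.13 with library totals, -0.10 without THOC5 osteogenic replicate 2 and -0.01 without GFP osteogenic replicate 2, in a range of -0.10 to 0.20 with 1 library left out. The cause was not tested. For the member counts with 1 library left out, the share of all genes called was not set beside them. With the replicate block, 13 members passed in GFP cells, 14 in osteogenic medium and 6 in the interaction. Replicate numbers share only 2 values and the labels give no shared batch. Same-numbered deviations correlated at 0.40 between the growth groups, 0.14 between the GFP groups, -0.08 between the THOC5 groups and -0.01 between the osteogenic groups. They correlated at -0.19 between THOC5 osteogenic and GFP growth libraries, and at -0.04 between THOC5 growth and GFP osteogenic libraries. The growth groups thus shared part of their replicate deviations, and the source was not tested. As the labels name no pairing, samples were not treated as paired in the main fit. Depth limits the members with few reads, Kcnma1 and Kcns1 among them.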

Other observations

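Kcnab2, a Kv beta subunit, had 114 and 137 normalized counts in the THOC5 osteogenic libraries, against 94.6 and 161 in the THOC5 growth libraries, and 78.7 and 83.2 in the GFP osteogenic libraries, against 100.2 and 159.5 in the GFP growth libraries. The second growth library exceeded the first in THOC5 cells and in GFP cells, and Kcnab2 passed in no comparison. Kcnq1ot1, the noncoding member, had 343 and 289 in the THOC5 osteogenic, 349 and 346 in the THOC5 growth, 336 and 356 in the GFP osteogenic and 366 and 441 in the GFP growth libraries, and did not pass either.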
